A study of Mus musculus with 8 samples.

Results

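The 10 genes described here encode the machinery that decides whether a cell leaves G1 and copies its DNA. They are the D cyclins Ccnd1, Ccnd2 and Ccnd3, their catalytic partners Cdk4 and Cdk6, the kinase inhibitors Cdkn1a (p21), Cdkn1b (p27) and Cdkn2c (p18), and the pocket proteins Rb1 and Rbl1 (p107). They were taken by symbol from the 22059 genes measured, and all 10 passed the filter on low counts that left 17081 genes for testing. RNA-seq was performed on poly(A)-selected RNA of whole liver from wild-type FVB mice (FVB/NJ in the Methods), an inbred strain, with 2 samples at each of 4 stages. The stages were embryonic day 18 (E18), postnatal day 14 (P14), postnatal day 28 (P28) and adult at 3 months. The labels name no mutant allele or treatment in any group. The study describes the samples as biological duplicates. The Methods name male mice for adult whole livers at 3 months, without tying them to the sequenced samples, and do not say whether a sample is 1 liver or a pool.

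In G1, mitogens raise D cyclins, which bind Cdk4 or Cdk6 and phosphorylate the pocket proteins. Phosphorylated pocket proteins release E2F transcription factors, and the E2F targets that follow, Ccne1 and Ccna2 among them, drive Cdk2 and DNA replication. Ink4 inhibitors such as Cdkn2c bind Cdk4 and Cdk6 directly. Cip/Kip inhibitors such as Cdkn1a and Cdkn1b block Cdk2 complexes and also help cyclin D to assemble with its kinase. Fetal liver is a site of blood formation as well as a growing organ, whereas most adult hepatocytes are quiescent and can re-enter the cycle after tissue loss.

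Each sample had 68154675 to 106055723 reads on genes. The marker genes of hepatocytes, summed over 6 genes and scaled by TMM (the scaling of edgeR, which assumes that most genes do not change), were at 42540 and 43160 CPM (read counts scaled to a common library total) at E18 and at 74490 to 206000 in the postnatal samples. Among them Tat alone was under 1 CPM at E18. Markers of blood-forming cells were highest at E18. The 7 erythroid markers summed to 5576 and 7442 CPM at E18 against 71.34 to 84.26 later, and 6 granulocyte markers to 742.4 and 834.2 CPM against 0.825 to 109.4 later. The 3 megakaryocyte markers went from 119.8 and 146.5 CPM at E18 to 6.085 and 5.618 in adult, with no marker at 0 at E18 in these blood lists. The 4 bile duct markers went from 45.95 and 31.58 CPM at E18 to 7.700 and 9.775 in adult. Kupffer cell, endothelial and stellate cell markers, at 122.1 to 230.1 CPM at E18, were at 83.81 to 446.6 CPM later. Exocrine pancreas markers summed to 238.2 and 515.9 CPM at E18 and to 35.73 to 124.2 later. Most of that later sum was Cela1, whose stage mean went up from 11.9 CPM (E18) to 111.6 (adult). Of the 7 pancreas markers tested, 5 fell from E18 to adult and 1 rose, where 23.8% and 16.8% of all genes did so. The rule for these calls is the one stated for the 10 genes below. The E18 means of Cpa1, Pnliprp1 and Ctrb1 were 86.74, 137.6 and 134.3 CPM, against adult means of 0, 0 and 0.041. In whole tissue, fewer cells of a type and less RNA per cell cannot be told apart, and the part of any of these cells in the results below was not tested. TMM gave the E18 samples factors of 1.598 and 1.539 and the postnatal samples 0.847 to 0.888. From E18 to adult, all genes had a median log2 fold change of -0.11 after TMM and -0.96 with library size alone, so differences from E18 carry a shift of that size between scalings. Comparisons among postnatal stages moved little with the scaling. The normalized values below are TMM-scaled CPM, given for replicate 1 and replicate 2 in that order.

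From E18 to adult, 7 of the 10 genes fell and 0 rose (edgeR quasi-likelihood test, adjusted p below 0.1 and over 3-fold). Those 7 were Ccnd2, Ccnd3, Cdk4, Cdkn1a, Cdkn2c, Rb1 and Rbl1. Of all 17081 genes tested, 23.8% fell and 16.8% rose by the same rule. With the adjusted p alone, 9 of the 10 genes were lower in adult, against 43.8% of all genes, and the exception was Ccnd1. The 10 genes had a median log2 fold change of -2.55, against -0.11 for all genes. With library size alone 6159 genes fell and 1653 rose, against 4061 and 2863 after TMM, and 9 of the 10 genes fell.

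**Figure D1:**
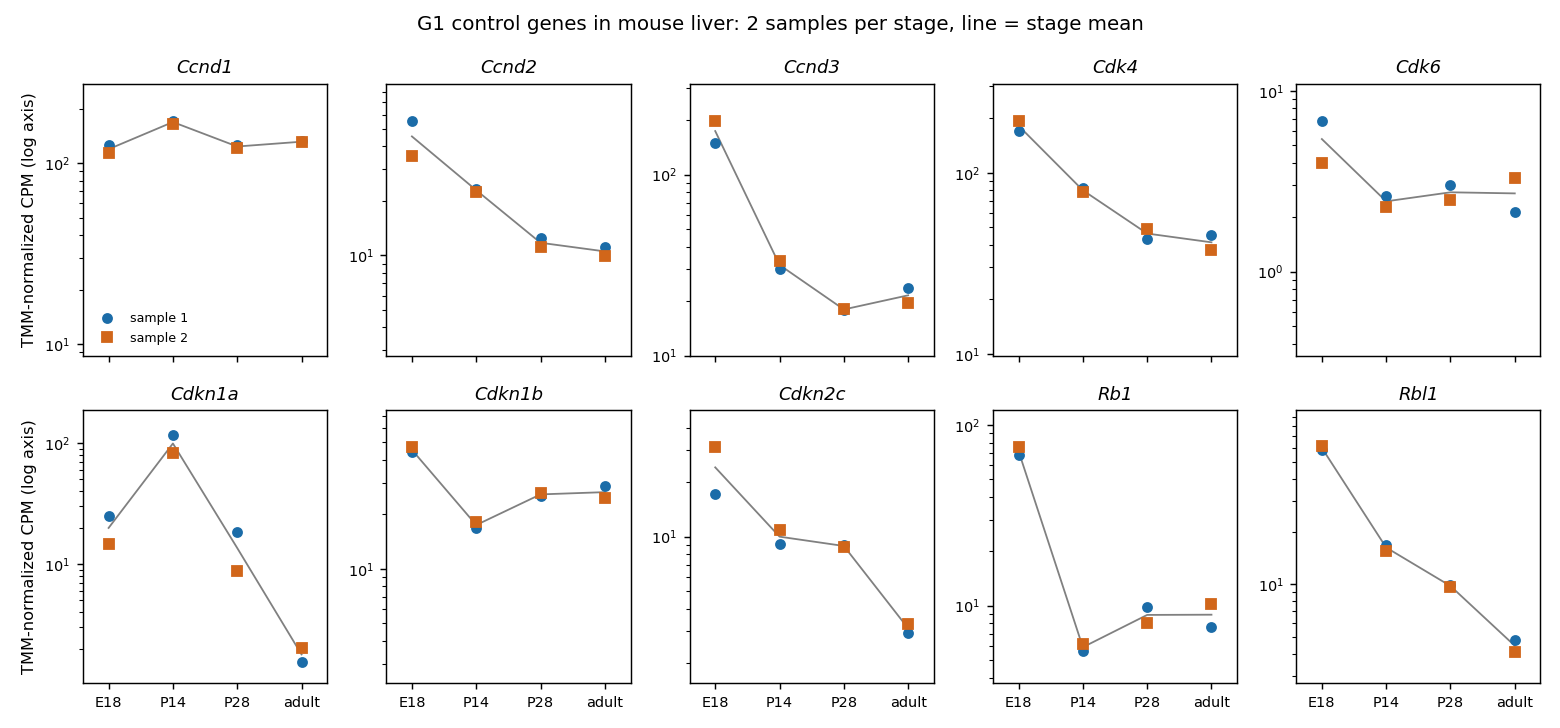
TMM-scaled CPM of each of the 10 G1 genes (vertical, log scale, each panel with its own range) at E18, P14, P28 and adult (horizontal), where points are the 2 samples and the line joins the stage means. Rb1 dropped between E18 and P14 and stayed low, Rbl1 was lower at every stage, Ccnd1 stayed between 113.2 and 171.9, and Cdkn1a peaked at P14.

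From E18 to P14, Ccnd3, Rb1 and Rbl1 fell and Cdkn1a rose, which is 3 genes down and 1 up, against 15.4% and 13.8% of all genes. With library size alone 5095 genes fell and 1266 rose, against 2636 and 2353 after TMM, and 8 of the 10 genes fell, with Cdkn1a under 3-fold. The median of the 10 genes was -1.23, against -0.03 for all genes. From P14 to P28 a single gene, Cdkn1a, fell and 0 rose, where 5.98% and 3.61% of all genes did so, and the medians were -0.59 and -0.05. From P28 to adult Cdkn1a fell again and 0 genes rose, where 2.24% and 0.767% of all genes did so. The medians of that last interval were -0.09 for the 10 genes and 0 for all genes. Over the whole postnatal span from P14 to adult, Cdkn1a, Cdkn2c and Rbl1 fell, against 11.1% of all genes.

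Ccnd1, the D cyclin best known in hepatocyte proliferation, was the most even of the 10 genes. It stood at 125.7 and 113.2 CPM at E18, 171.9 and 165.5 at P14, then 125.8 and 121.4 at P28, and 132.7 and 130.1 in adult. Both P14 samples were above all 6 others, and the E18, P28 and adult values lay close together. Its log2 fold change between E18 and adult was 0.14 (standard error, SE, 0.09, 95% confidence interval -0.07 to 0.34, edgeR adjusted p = 0.18). It was 1.41-fold higher at P14 than at E18 (log2 fold change 0.50, edgeR adjusted p = 0.00084) and 1.36-fold lower at P28 than at P14 (edgeR adjusted p = 0.0036), both under the 3-fold threshold. The direction of the differences from E18 depended on the scaling. With library size alone the log2 fold change was -0.71 from E18 to adult and -0.37 from E18 to P14, against medians of all genes of -0.96 and -0.90 in that fit. Such a change of scaling moves all genes alike, so the distance of Ccnd1 from the median gene is the same by construction.

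Ccnd3, the D cyclin that is prominent in blood cells, fell the most in this family. Its values were 149.0 and 198.7 CPM at E18, 29.95 and 33.36 at P14, then 17.84 and 18.10 at P28, and 23.48 and 19.54 in adult. The E18 samples were far above all postnatal samples, with no overlap. The fall was 5.49-fold by P14 (log2 fold change -2.46, SE 0.15, edgeR adjusted p = 7e-07) and 8.09-fold by adult (log2 fold change -3.02, SE 0.16, edgeR adjusted p = 1.4e-07). From P28 to adult the log2 difference was 0.26 (95% confidence interval -0.08 to 0.59, edgeR adjusted p = 0.29).

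Ccnd2, the third D cyclin, gave 55.57 and 35.28 CPM at E18, 23.36 and 22.48 at P14, then 12.40 and 11.08 at P28, and 11.14 and 9.896 in adult. The E18 replicates stood apart from each other, and each stage up to P28 was below the one before it. It fell 4.32-fold from E18 to adult (log2 fold change -2.11, SE 0.20, edgeR adjusted p = 7.6e-06), in steps that were each under 3-fold.

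Because the levels of different genes can be compared only per length, the make-up of the D cyclin pool was computed from the deposited RPKM (reads divided by transcript length and library total), within each sample, where the scaling between samples plays no part. Ccnd3 made up 60.66% and 70.99% of the summed D cyclin RPKM at E18, and 18.28% to 23.72% in the 6 postnatal samples. Ccnd1 made up 30.48% and 24.08% at E18, and 70.03% to 76.80% in the postnatal samples. Ccnd2 contributed 3.841% to 8.861% in all samples. The D cyclin transcripts thus went from mostly Ccnd3 to mostly Ccnd1 between E18 and P14, without overlap between the E18 and postnatal samples, and the make-up moved little after that. The summed RPKM, unlike the shares, depends on the scaling between samples. As deposited it went from 170.2 ± 12.8 (SD, n = 2) at E18 to 50.48 ± 0.608 at P14 and 36.74 ± 0.714 in adult. Divided by the TMM factor of each sample it went from 100.9 and 116.5 at E18 to 58.86 and 58.61 at P14 and 43.61 and 40.80 in adult. The shares are given as values with no test. The blood cell markers given above fell over the same interval, and their part in the shares was not tested.

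**Figure D2:**
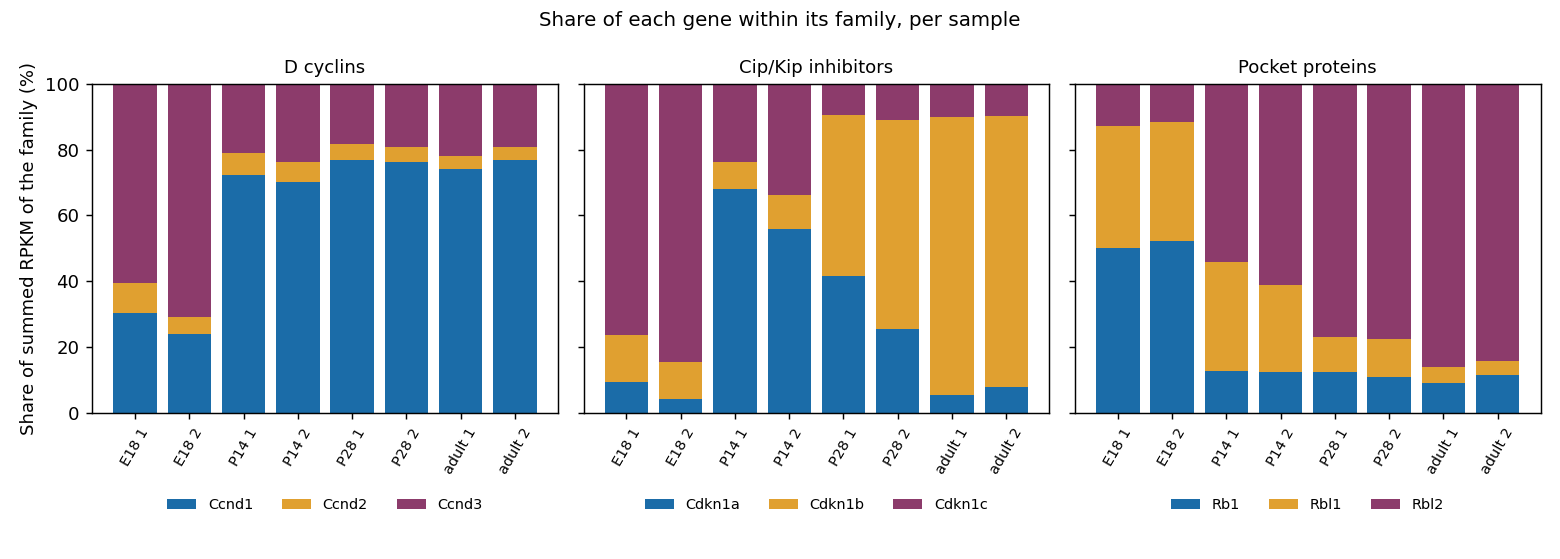
Share of each gene in the summed RPKM of its family (vertical, percent, starting at 0) by sample (horizontal), in stacked bars, 1 for each of the 8 samples, for D cyclins, Cip/Kip inhibitors and pocket proteins. The leading gene changes from Ccnd3 to Ccnd1, from Cdkn1c through Cdkn1a to Cdkn1b, and from Rb1 to Rbl2.

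Cdk4, the main partner of D cyclins in most tissues, was present at every stage. Its values were 169.5 and 194.2 CPM at E18, 82.14 and 77.88 at P14, then 43.23 and 49.06 at P28, and 45.15 and 37.37 in adult. The E18 samples were highest, the P14 samples lay between, and the P28 and adult samples overlapped. The fall from E18 to adult was 4.41-fold (log2 fold change -2.14, SE 0.13, edgeR adjusted p = 3.2e-07). It was spread over E18 to P14 (2.27-fold lower, edgeR adjusted p = 2e-05) and P14 to P28 (1.73-fold lower, edgeR adjusted p = 0.00085).

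Cdk6, the paralog that is prominent in blood cells, was scarce in these livers, with 124 to 949 reads per sample. It gave 6.838 and 3.971 CPM at E18, 2.629 and 2.266 at P14, then 3.001 and 2.490 at P28, and 2.131 and 3.284 in adult. Both E18 samples were above all others, but they differed from each other by more than the postnatal stages did. The log2 fold change from E18 to adult was -0.99 (SE 0.29, edgeR adjusted p = 0.01), under the 3-fold threshold after TMM and over it with library size alone (-1.85). After P14 no interval passed (edgeR adjusted p = 0.67 from P14 to P28 and 0.98 from P28 to adult), with a confidence interval of -0.69 to 0.65 for the last log2 difference. By RPKM, Cdk4 exceeded Cdk6 in every sample, from 20.88 times in an adult sample to 89.73 times in an E18 sample. Duplicates were far apart, at 45.48 and 89.73 at E18 and 38.88 and 20.88 in adult.

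The stretch before the Cdk4 start site is shown because it holds the letters CACGTG, the E-box bound by Myc and related factors, 4 times. Only the 250 bases before the RefSeq start are printed, on the plus strand of GRCm38.p6 at chr10:127063285-127063534, with the E-boxes in capitals.

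Cdk4: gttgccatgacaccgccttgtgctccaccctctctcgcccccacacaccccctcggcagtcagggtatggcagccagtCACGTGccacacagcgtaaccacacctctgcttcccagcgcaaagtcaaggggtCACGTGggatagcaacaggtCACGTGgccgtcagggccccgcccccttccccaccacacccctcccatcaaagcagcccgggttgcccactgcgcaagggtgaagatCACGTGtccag

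The E-boxes begin at positions -172, -118, -98 and -11, counted back from the start. RefSeq windows of 250 bases before to 50 after a start were at hand for 7 of the 10 genes, in 10 windows, and were missing for Ccnd1, Ccnd2 and Rb1. CACGTG reads the same on both strands. It was in 3 of the 10 windows and in 7.15% of all 32851 windows, and 8 of those windows (0.0244%) held it 4 times or more. These letters are a description of the sequence, not evidence of binding. Of the Myc genes among the mitogen inputs below, Mycn fell from E18 to adult (log2 fold change -1.74, SE 0.18, edgeR adjusted p = 1.5e-05), from 7.277 and 5.483 CPM to 1.908 and 1.913. Myc had a log2 fold change of -1.08 over the same span, under 3-fold after TMM and at -1.94 with library size alone.

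Cdkn1a, the p21 inhibitor that p53 and other signals induce, had a course unlike the other 9 genes. It gave 25.13 and 14.64 CPM at E18, 116.2 and 82.18 at P14, then 18.32 and 8.826 at P28, and 1.564 and 2.018 in adult. Both P14 samples were above all others and both adult samples, with 91 and 134 reads, were below all others, whereas E18 and P28 overlapped. From E18 to P14 it rose 4.98-fold (log2 fold change 2.32, SE 0.36, edgeR adjusted p = 0.00031). With library size alone that log2 fold change was 1.44 (edgeR adjusted p = 0.0043), in the same direction and under the 3-fold threshold. It then fell 7.29-fold from P14 to P28 (log2 fold change -2.87, SE 0.37, edgeR adjusted p = 0.00033). A further fall of 7.56-fold followed from P28 to adult (log2 fold change -2.92, SE 0.41, edgeR adjusted p = 0.0025). Across P14 to adult the fall came to 55.1-fold (log2 fold change -5.78, SE 0.44, edgeR adjusted p = 8.9e-06).

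A list of 12 other genes related to p53, among them Trp53 itself, its antagonist Mdm2 and known targets, was set beside Cdkn1a. From E18 to P14, where Cdkn1a rose, 1 of the 12 rose and 2 fell after TMM, with a median log2 fold change of -0.96. Of all 17081 genes tested, 13.8% rose and 15.4% fell, with a median of -0.03. With library size alone 1 rose and 8 fell, with a median of -1.84, where 1266 and 5095 of the 17081 genes did so, with a median of -0.90. The gene that rose was Trp53inp1, a stress-induced p53 cofactor, from 14.11 and 13.97 CPM to 86.71 and 80.41 (log2 fold change 2.57, SE 0.11, edgeR adjusted p = 7.3e-08). Phlda3, an inhibitor of Akt signalling, had a log2 fold change of -3.27, and Gadd45a, a stress sensor, of -2.62. From E18 to adult, 1 of the 12 rose and 3 fell, with a median of -0.42, where 16.8% and 23.8% of all genes did so, with a median of -0.11. Phlda3 (-5.00), the antiproliferative gene Btg2 (-3.81) and Gadd45a (-2.18) fell, and Trp53inp1 rose after TMM (1.65) but stayed under 3-fold with library size alone (0.80). From P14 to adult, where Cdkn1a fell, Btg2 and Phlda3 fell and Bbc3, a pro-apoptotic gene, rose (log2 fold change 1.97, edgeR adjusted p = 0.00018). These were 2 falls and 1 rise among the 12, with a median of 0.13, against -0.03 for all genes. Of all genes, 11.1% fell over that span, and the share that rose was not counted.

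**Figure D3:**
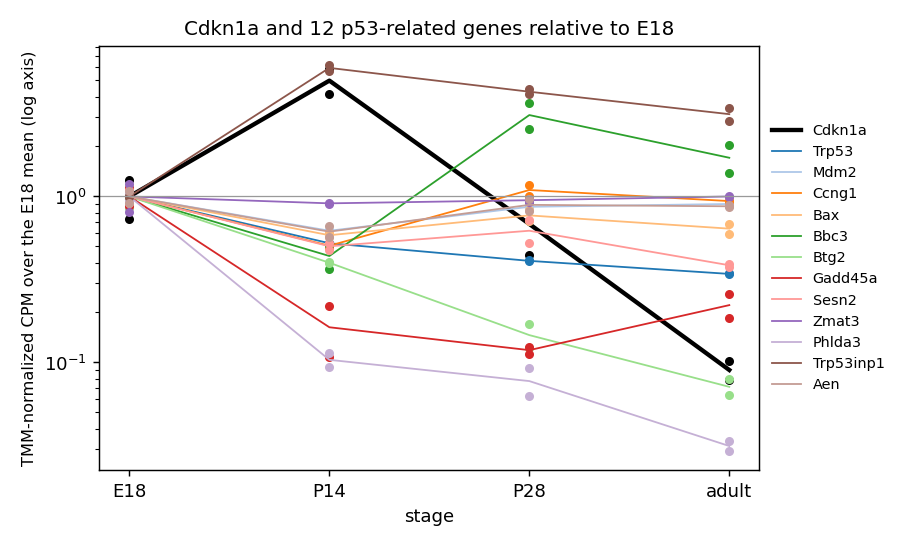
TMM-scaled CPM over the E18 mean (vertical, log scale) by stage (horizontal) for Cdkn1a, in black, and the 12 p53-related genes, where points are samples and lines join the means of 2 samples. Cdkn1a goes up at P14 and far down by adult, while Trp53inp1 goes up at P14 and stays above its E18 level and Phlda3 declines from E18 on.

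Cdkn1b, the p27 inhibitor associated with quiescent cells, had the smallest difference from E18 to adult of the 3 inhibitors. It gave 44.03 and 46.90 CPM at E18, 16.88 and 18.06 at P14, then 25.38 and 26.21 at P28, and 28.52 and 24.57 in adult. The P14 samples were below all others, the E18 samples above all others, and P28 and adult overlapped. It was 2.60-fold lower at P14 than at E18 (log2 fold change -1.38, SE 0.10, edgeR adjusted p = 2.4e-06). From P14 to P28 it was 1.48-fold higher (log2 fold change 0.56, SE 0.10, edgeR adjusted p = 0.0021). From E18 to adult the log2 fold change was -0.78 (SE 0.10, edgeR adjusted p = 8.1e-05), under 3-fold after TMM and -1.63 with library size alone. At P14 Cdkn1b was thus at its lowest where Cdkn1a was at its highest.

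Cdkn2c, the p18 Ink4 inhibitor, declined in stages. It gave 17.15 and 31.10 CPM at E18, 9.097 and 10.88 at P14, then 9.003 and 8.742 at P28, and 2.922 and 3.299 in adult. The E18 samples were highest but uneven, P14 and P28 were alike within a log2 confidence interval of -0.72 to 0.38, and the adult samples were lowest. The fall was 7.74-fold from E18 to adult (log2 fold change -2.95, SE 0.27, edgeR adjusted p = 6.1e-06) and 3.21-fold from P14 to adult (edgeR adjusted p = 6e-04). From P28 to adult it was 2.85-fold lower (edgeR adjusted p = 0.0065), just under the fold threshold.

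Cdkn2c held nearly all Ink4 transcripts, at 89.29% to 99.22% of the summed RPKM of the 4 Ink4 genes in every sample. The other 3 had few reads, with 0 to 15 reads for Cdkn2a, 7 to 47 for Cdkn2b and 1 to 15 for Cdkn2d. Among the 4 inhibitors outside the 10 genes (Cdkn1c, Cdkn2a, Cdkn2b and Cdkn2d), Cdkn1c alone passed both thresholds from E18 to adult. The make-up of the Cip/Kip family was computed in the same way as that of the D cyclins. This view, and that of the pocket proteins, was chosen after the values were seen. Cdkn1c (p57), an imprinted inhibitor of fetal tissues, held 80.36% ± 5.66 (SD, n = 2) of the family's RPKM at E18. At P14 Cdkn1a led with 61.9% ± 8.66. At P28 Cdkn1b led with 56.13% ± 10.5 against 33.56% ± 11.5 for Cdkn1a, and in adult Cdkn1b held 83.17% ± 1.54. Cdkn1c itself went from 192.6 and 280.1 CPM at E18 to 2.802 and 2.395 in adult (log2 fold change -6.51, SE 0.23, edgeR adjusted p = 1.5e-08). The summed RPKM of the 3 genes went from 192.7 and 247.4 at E18 to 11.09 and 10.10 in adult as deposited, and from 120.6 and 160.7 to 12.98 and 11.37 after division by the TMM factors.

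Rb1, the retinoblastoma protein, which holds E2F in check in resting cells, had the largest fall of the 10 genes from E18 to P14. It gave 68.28 and 75.33 CPM at E18, 5.606 and 6.170 at P14, then 9.803 and 7.973 at P28, and 7.597 and 10.23 in adult. The E18 samples were far above the rest, and the P14 samples were the lowest. The fall from E18 to P14 was 12.2-fold (log2 fold change -3.61, SE 0.17, edgeR adjusted p = 1.3e-07). From P14 to P28 the log2 fold change was 0.60 (SE 0.16, edgeR adjusted p = 0.014), under 3-fold, and from P28 to adult its 95% confidence interval was -0.35 to 0.36.

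Rbl1, or p107, a pocket protein of cycling cells and itself an E2F target, declined at every stage. It gave 58.69 and 61.34 CPM at E18, 16.86 and 15.57 at P14, then 9.903 and 9.666 at P28, and 4.813 and 4.112 in adult. No stage overlapped the next, and duplicates were close. It fell 13.5-fold from E18 to adult, the largest fall among the 10 genes (log2 fold change -3.75, SE 0.11, edgeR adjusted p = 7.5e-09). By P14 the fall was 3.70-fold (edgeR adjusted p = 3.3e-07), and the steps of P14 to P28 (1.66-fold lower, edgeR adjusted p = 0.00057) and P28 to adult (2.20-fold lower, edgeR adjusted p = 0.00037) were under 3-fold.

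The stretches before the starts of Rbl1 and Cdkn2c are shown because, of the member windows, theirs held E2F letters. Each is the 100 bases before the start on the minus strand of GRCm38.p6, at chr2:157204535-157204634 for Rbl1 and chr4:109666757-109666856 for Cdkn2c, with the match in capitals.

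Rbl1: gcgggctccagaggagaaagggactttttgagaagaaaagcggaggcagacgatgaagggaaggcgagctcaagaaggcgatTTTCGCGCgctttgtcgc

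Cdkn2c: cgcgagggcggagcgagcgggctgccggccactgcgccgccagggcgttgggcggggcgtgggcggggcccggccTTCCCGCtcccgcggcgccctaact

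The search used the letters TTTCCCGC, TTTGGCGC, TTTGCCGC and TTTCGCGC on both strands, and separately the shorter TTCCCGC, which lies within the first of them. Rbl1 held TTTCGCGC at -18 to -11, where 2.26% of all windows held any of the 4 forms. Cdkn2c held TTCCCGC at -25 to -19 in the window printed here, and 4.60% of all windows held these letters. The other window of Cdkn2c held no E2F match. GGGCGG, the GC box of many promoters without a TATA box, was in 7 of the 10 member windows and 35.7% of all windows. A match says only that the letters are there.

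The third pocket gene, Rbl2 (p130), the form that resting cells carry, moved the other way. It gave 18.49 and 17.56 CPM at E18, 24.88 and 32.37 at P14, then 64.02 and 59.06 at P28, and 76.47 and 78.05 in adult. The log2 fold change from E18 to adult was 2.10 (SE 0.13, edgeR adjusted p = 4.1e-07) after TMM and 1.25 with library size alone, which is under 3-fold. Within the pocket family, by RPKM, Rb1 held 51.22% ± 1.38 (SD, n = 2) at E18 and 9.037% to 12.87% in the postnatal samples. Rbl1 went from 36.89% and 36.30% at E18 to 4.890% and 4.010% in adult. Rbl2 went from 12.87% and 11.51% at E18 to 86.07% and 84.31% in adult, with no overlap between stages. The summed RPKM of the 3 genes, as deposited, was 43.59 and 45.18 at E18, 7.659 and 8.71 at P14, and 14.32 and 15.37 in adult. Divided by the TMM factors it was 27.28 and 29.36, then 8.854 and 10.2, and 16.77 and 17.31. From E18 to P14 the log2 fold change of Rbl2 itself was -0.20 with library size alone (edgeR adjusted p = 0.16).

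**Figure D4:**
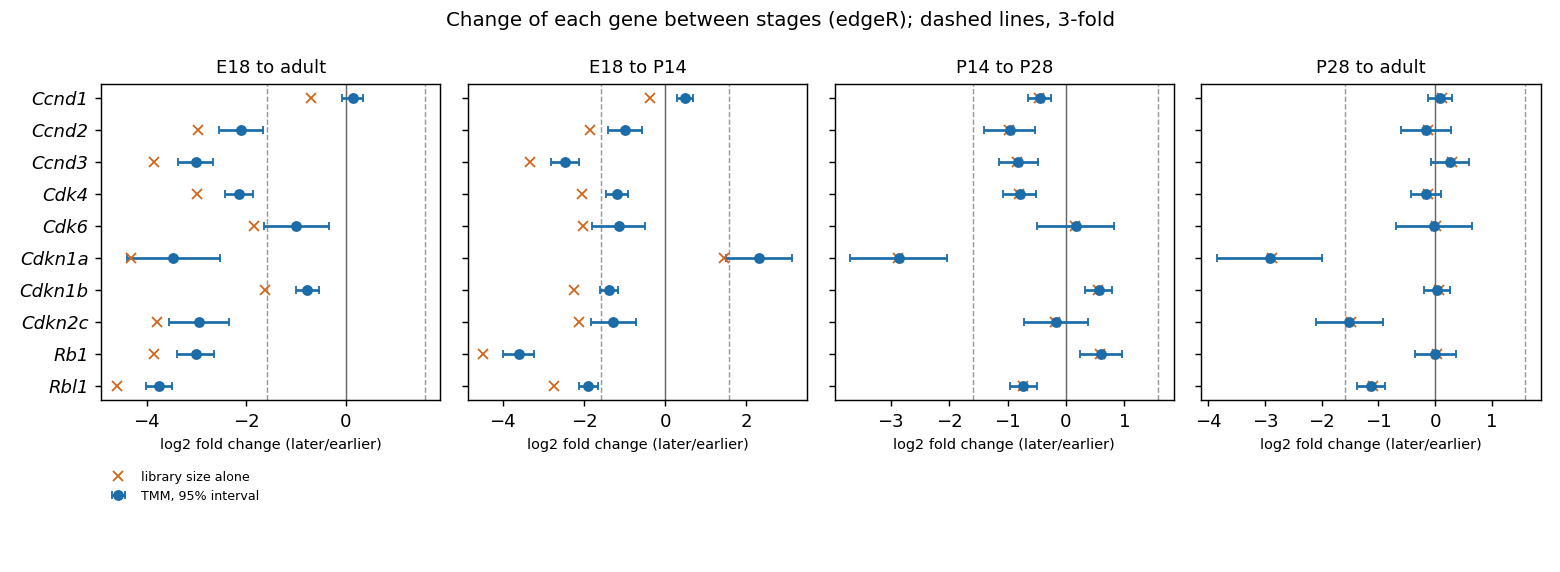
Log2 fold change (horizontal) of each of the 10 G1 genes in 4 comparisons of stages, where circles are edgeR estimates after TMM with 95% confidence intervals, crosses are the same with library size alone, and dashed lines mark 3-fold. After TMM, 9 genes lie below 0 from E18 to adult and Ccnd1 has an interval that includes 0, and Cdkn1a is over 3-fold higher at P14 than at E18; its cross and those of the other genes in the first 2 panels lie further left.

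Around these 10 genes, 32 further G1/S genes were grouped by role. Of the 32, 16 fell and 2 rose from E18 to adult, with a median log2 fold change of -1.37. Of all 17081 genes tested, 23.8% fell and 16.8% rose, with a median of -0.11. All 5 Cdk2 cyclins and activators fell, with a median of -3.43. Among them were Ccna2 (-6.04), the cyclin of S phase, Ccne1 (-4.98) and Ccne2 (-3.43), which fire Cdk2 at the end of G1, and the phosphatase Cdc25a (-3.31). Ccne1 was at 120.7 and 156.8 CPM at E18 and at 5.483 and 3.344 in adult. None of the 3 genes of the Cdk-activating kinase, which phosphorylates Cdks at all phases, passed both thresholds. After TMM 1 of the 3 was higher by the adjusted p alone, with a median of 0.01. With library size alone all 3 were lower by the adjusted p alone, with Cdk7 at -0.65, Ccnh at -0.84 and Mnat1 at -0.97. The median of all genes was -0.96 in that fit.

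Of the 11 genes of Rbl2, E2F and DP factors, 8 fell and 1, Rbl2, rose, against 23.8% and 16.8% of all genes. E2f2 (-6.50) and E2f1 (-4.46), activators of S phase genes, fell the most, followed by E2f7, a repressor, at -3.29 (SE 0.22), and Tfdp2, an E2F partner, at -3.004. E2f2 went from 351.6 and 532.3 CPM at E18 to 5.517 and 4.247 in adult. Among 9 genes for the turnover of G1 regulators, Skp2, which targets p27 for degradation, fell (log2 fold change -3.74, SE 0.14, edgeR adjusted p = 2.1e-08), and so did its cofactor Cks1b. Fbxo4, another F-box protein, rose from 2.443 and 2.917 CPM to 21.97 and 24.42 (log2 fold change 3.11, SE 0.13, edgeR adjusted p = 4e-08). These 2 falls and 1 rise among 9 genes stand beside the same shares of all genes.

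Of 11 mitogen inputs, 2 rose and 2 fell from E18 to adult, where 16.8% and 23.8% of all genes did so. Egfr, the receptor for EGF, rose from 6.427 and 2.958 CPM at E18 to 660.5 and 1151 in adult (log2 fold change 7.59, SE 0.44, edgeR adjusted p = 3.1e-07). Its dimerization partner Erbb3 rose from 16.64 and 9.414 CPM to 125.5 and 119.9. Igf1r, the receptor for IGF1, fell from 33.68 and 27.85 CPM to 3.128 and 2.380 (log2 fold change -3.49, SE 0.19, edgeR adjusted p = 1.7e-07). Mycn was the other gene that fell.

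All 10 proliferation markers fell from E18 to adult, with a median log2 fold change of -7.64. By the same rule 23.8% of all genes fell, with a median of -0.11. Mki67, present in cycling cells, went from 1196 and 1335 CPM at E18 to 53.49 and 63.06 at P14, then 19.56 and 13.99 at P28, and 0.7907 and 0.7230 in adult. Top2a (-8.25), a topoisomerase of S and G2 cells, and Plk1 (-8.22), a mitotic kinase, also fell. Ccnb1, the mitotic cyclin, had 3037 and 3290 reads at E18 and 1 read in each adult sample. The summed reads, scaled by TMM, gave a ratio of E18 to adult of 1510 (exact 95% interval 418 to 12468, for counting error only). The log2 fold changes of the G1 genes other than Ccnd1 lay between -3.75 and -0.78, closer to 0 than the median of these markers.

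The likeness of profiles was taken as the root-mean-square difference in log2(CPM + 0.5) over the 8 samples, each profile centred on its own mean, among 13194 other genes. Ccnd1 was nearest to Tmem201 (0.053) and Smad5 (0.074), and Cdkn1b to Rfesd (0.053) and Chac2 (0.09). Cdk4 was nearest to Nup85 (0.094) and Siva1 (0.095), Ccnd2 to Arhgef17 (0.133) and Mdfi (0.143), and Cdk6 to Btbd7 (0.132) and Glg1 (0.138). Ccnd3 was nearest to Donson (0.115) and 1190007F08Rik (0.135), Rbl1 to Ube2t (0.138) and Rac2 (0.144), Rb1 to 5730508B09Rik (0.169) and Xk (0.171), and Cdkn2c to Reep5 (0.207) and Fuca2 (0.213). Cdkn1a had the most distant neighbours, Lpl (0.503) and Sybu (0.521). Within the 10 genes, Ccnd2 and Cdk4 were the closest pair at 0.244. With 8 samples and 4 stages, many genes have like profiles, and nothing about shared control follows from these values.

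The exons of 7 of the 10 genes overlap an exon of a gene on the opposite strand in the GENCODE M21 annotation of GRCm38. Among them, the longest overlap of a single pair of exons was 641 bases for Cdk4 with Tspan31, 818 for Ccnd1 with LTO1 and 361 for Ccnd3 with Bysl. Whether the counting used strand is not stated, so reads from the overlapping stretches cannot be told apart, and their number was not counted.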

How the data were processed

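RNA-seq counts came from 8 whole-liver samples, grouped by the stage and numbered by the replicate in the labels, where no litter, batch or date is given. The authors aligned 100 bp read pairs to the mouse genome (mm9 in the submitters' processing notes, with the aligner not given in the sources used here), and deposited per gene the raw read counts, without normalization, and RPKM. RNA was isolated with Trizol per the labels and with RNeasy per the Methods. Counts were filtered with filterByExpr, scaled by TMM and fitted with 1 coefficient per stage over all 8 samples by glmQLFit and glmQLFTest in edgeR (version 4.0.16, R version 4.3.3). A gene was called, and is said to have risen or fallen, at a Benjamini-Hochberg adjusted p below 0.1, over all 17081 genes, and a change over 3-fold. The design was tested on simulated data. DESeq2 (version 1.42.0) and limma (version 3.58.1) on log2(RPKM + 0.1) were alternatives, with other scalings, filters and thresholds, the replicate number as a block, and each sample left out. Depth was 68154675 to 106055723 reads on genes per sample. The p-values set a difference against the spread between samples of the same stage, pooled over all stages and moderated across genes.

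The members and gene lists were chosen with earlier results of these data known. Named beside the members are up to 4 genes per list and direction with the largest log2 fold change from E18 to adult among those called, and the 2 genes nearest in profile to each member. The Myc, Cdkn2a, Cdkn2b, Cdkn2d and P14 values of listed genes, and the shares of Cip/Kip, Ink4 and pocket genes, were chosen after values were seen, as were the division of summed RPKM by TMM factors and the p53-related counts of E18 to P14 under other scalings. Promoter windows came from RefSeq on GRCm38.p6 and exon overlaps from GENCODE M21, used for sequence and neighbours only, since the files are on mm9. Splicing was not analysed here.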

Additional observations from a re-analysis of the deposited data

How the results depend on the processing

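The number of G1 genes called from E18 to P14 was 4 in the edgeR fit after TMM, 8 with library size alone, 8 in a limma fit of log2(RPKM + 0.1), 8 with a 2-fold threshold and 10 with no fold threshold. From P14 to P28 it was 1, and 8 with no fold threshold. From P28 to adult it was 1, and 3 with a 2-fold threshold or none, and 1 to 2 with each sample left out, where leaving out adult replicate 2 added Cdkn2c (log2 fold change -1.61). The p53-related genes called from E18 to adult were 4, and 8 with no fold threshold. From E18 to P14 they were 3 after TMM and 9 with library size alone or limma. The counts of G1 and other G1/S genes called from E18 to adult stayed within 1.5 times under every alternative run. Ccnd1 turned its direction with library size alone (-0.71 from E18 to adult, -0.37 from E18 to P14) and with limma (-0.73 and -0.36), where the median of all genes moved too. From P28 to adult, differences near 0 changed sign. For Cdk6 these were 0.02 with library size alone, 0.01 with the replicate block, 0.12 without P28 replicate 1 and 0.26 without adult replicate 1. Cdkn1b was at -0.07 without adult replicate 1 and 0.14 without adult replicate 2. Rb1 was at 0.00 with no filter, with a minimum of 10 counts in each sample and with only the 2 stages compared, at -0.01 with the replicate block, at -0.14 without P28 replicate 2 at -0.23 without adult replicate 2 and at 0.20 without adult replicate 1. With read counts in place of RPKM, which drops the correction for length, the D cyclin shares at E18, P14, P28 and adult became 35.3, 75.6, 80.6 and 80.4% for Ccnd1, 13.5, 10.3, 7.65 and 6.43% for Ccnd2, and 51.2, 14.2, 11.7 and 13.1% for Ccnd3. The mean ratio of Cdk4 to Cdk6 by read counts became 36.8 at E18 (67.6 by RPKM), 32.8 at P14, 17.0 at P28 and 16.3 in adult.

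The replicate numbers showed no consistent pairing: deviations from the stage means of same-numbered samples correlated at -0.296 to 0.116 across 13195 genes, over 6 pairs of stages. With 2 samples per stage this check cannot show that no pairing exists. With the replicate block 2866 genes rose and 4058 fell from E18 to adult (2863 and 4061 with no block), and the counts of G1 genes called were 7, 4, 1 and 1 in the order of the report. Counting limits Cdkn2a, Cdkn2b and Cdkn2d, with 0 to 47 reads a sample, and Ccnb1 in adult. An arm left with 1 sample was assumed to vary like the other stages.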
